A study of Helix lucorum with 35 samples.

Results

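The right parietal ganglia of experiment 1 (E1) were compared between stimulated and control animals, so that the side of the nervous system was the same in every sample. The comparison holds 6 libraries, picked by the experiment and hemisphere given in the labels, of the 24 libraries with counts and the 35 samples of the series. The activated group was the right part of the parietal ganglia of snails 4, 5, and 6. The control group was the right part of the parietal ganglia of snails 1, 2, and 3. No snail gave a library to both groups, so the comparison is unpaired, with 3 snails a side.

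The animals were adult land snails, Helix lucorum, and the labels name no strain or genetic change for any group. In all 6, the central ganglia were isolated, stored in the cold for 24 h in a saline rich in calcium (28 mM) and magnesium (25 mM), and left at room temperature for 1 h. The control parts were then frozen, before any drug was given. The activated parts were first moved to normal saline with 20 µM anisomycin, a blocker of protein synthesis, for 10 min. They then received 100 µM caffeine and 5 µM serotonin (5-HT) beside the anisomycin for 20 to 25 min. The comparison therefore covers stimulation, anisomycin, the change of saline, and the longer time before freezing together, and these cannot be told apart. The other side of each snail had the other condition: the left parts of snails 1, 2, and 3 were activated, and those of snails 4, 5, and 6 were controls. In the right parts, activation and the set of snails therefore coincide and cannot be told apart. The left parts hold the same snails with the condition turned around and share no library with the right parts, so they are used here to read the right contigs again. By the methods, a left part carried the visceral ganglion with it and a right part did not.

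Immediate early genes (IEGs) are the first genes a neuron transcribes after strong activity, and their transcription does not wait for new proteins. The best known is c-fos, which in mammals encodes a subunit of the AP-1 transcription factor, and fosl2 encodes a related subunit. In snails, 5-HT is a modulator released during noxious stimulation, and the parietal ganglia hold giant premotor interneurons of the withdrawal reflex. The contigs in the files are numbered pieces of a de novo transcriptome. They carry no gene names, and only the c-fos/fosl2 contig could be named, from the probe listed in the study. The labelled tissue could therefore not be checked against marker genes. In pieces of ganglia, fewer cells of a type and less RNA per cell cannot be told apart.

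The total count of a right library ranged from 4704660 to 14733028 in the activated group and from 6367555 to 35225724 in the control group. Of the 266980 contigs tested, 69.1% to 88.9% had a count in an activated library and 78.8% to 95.7% in a control library. The activated part of snail 6 was the shallowest right library and the control part of snail 1 the deepest. The left controls, read further below, held 30664588, 3513906, and 3581307 counts in snails 4, 5, and 6. The 6 right libraries did not fall into activated and control. Distances, as 1 minus Spearman's rho over 387774 contigs, averaged 0.414 within the activated group, 0.397 within the control group, and 0.418 between the groups. The average was 0.282 between a right part and the left part of the same snail, and for all 6 right libraries the nearest of the other 11 E1 libraries was the left part of that snail, which had the other condition.

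The c-fos/fosl2 contig was higher in each activated right part than in each control right part. Its level in CPM (its count scaled to a common library size) was 42.5, 52, and 47.2 in the activated parts of snails 4, 5, and 6. It was 1.56, 10.7, and 3.04 CPM in the control parts of snails 1, 2, and 3. The groups did not overlap, and the control part of snail 2 stood above the other controls. The activated level was 47.2 ± 4.74 CPM and the control level 5.1 ± 4.91 CPM (SD, n = 3 each), and the highest control was 6.88-fold above the lowest against 1.22-fold among the activated parts. The log2 fold change was 3.28, at an adjusted p of 0.0528 in edgeR's exact test, so the contig missed the threshold of 0.05. It came 1048th by p among the contigs tested. DESeq2 gave a log2 fold change of 3.27 with a standard error of 0.861 and an adjusted p of 0.0345, on the other side of the threshold. The quasi-likelihood test gave an adjusted p of 0.811. Without the control part of snail 2, the exact test gave 4.4 at an adjusted p of 0.000502, whereas leaving out any other right library gave an adjusted p between 0.0731 and 0.411. An exact permutation test of this contig alone gave a two-sided p of 0.1, the smallest that 3 against 3 libraries allow.

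The left parts gave the same direction for c-fos/fosl2. The left activated parts of snails 1, 2, and 3 were at 116, 59.9, and 51 CPM, and the left control parts of snails 4, 5, and 6 at 14.8, 4.16, and 2.85 CPM. All 3 activated parts again stood above all 3 controls. The log2 fold change was 3.37 at an adjusted p of 0.038 in the exact test. The right change minus the left change was -0.124 on the log2 scale (adjusted p of 1, edgeR's quasi-likelihood test on 12 libraries). Within the snails whose right part was activated, the activated part exceeded the control part of the same animal by 1.49, 3.49, and 3.83 on the log2(CPM + 0.5) scale in snails 4, 5, and 6. Snail 4 had the smallest step of the 6 snails. Its left control, at 14.8 CPM, was the highest left control, while its activated part stood within 10 CPM of those of snails 5 and 6. In experiment 2 (E2), which took a medial piece of the ganglia with the giant interneurons from other snails, the right activated pieces were at 152 and 93.1 CPM and the right control pieces at 20.8, 64.9, 7.98, and 14.1 CPM. These levels were scaled within E2 and are not set against those of E1.

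**Figure D1:**
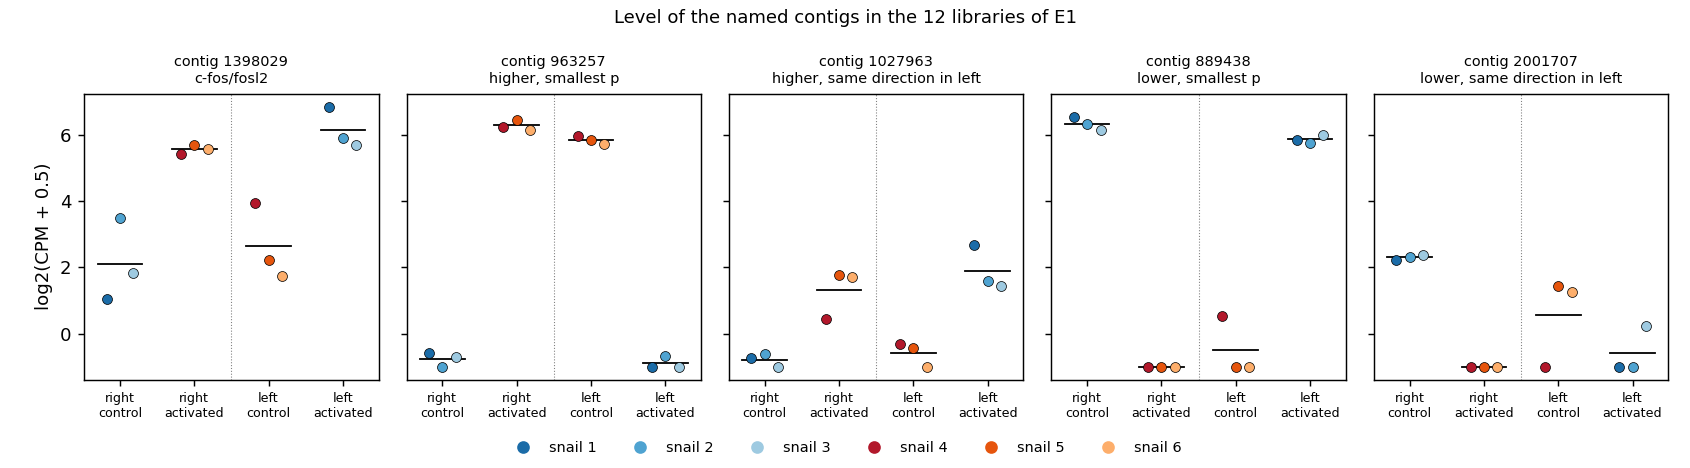
Level of the 5 named contigs in the 12 libraries of E1, as log2(CPM + 0.5) with 1 point per library, coloured by snail, and a line at each group mean; a library with no count lies at -1. The c-fos/fosl2 contig and contig 1027963 are high in the activated libraries of both sides, whereas contigs 963257 and 889438 are high in the libraries of 1 set of 3 snails on both sides.

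Across all contigs, 1020 of 266980 (0.382%) were called in the right parts, at an adjusted p below 0.05 in edgeR's exact test and more than a 2-fold change. Of these, 341 (0.128% of the contigs tested) were higher in the activated parts and 679 (0.254%) were lower, so 66.6% of the calls were lower. The median log2 fold change of all tested contigs was -0.107, and 15162 of them (5.68%) had an unadjusted p below 0.05. edgeR's quasi-likelihood test on the same libraries called 0 contigs, with 13501 at an unadjusted p below 0.05 and a lowest adjusted p of 0.0587. DESeq2 called 732, of which 310 were higher and 422 lower.

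The called contigs were mostly contigs that 1 of the groups hardly held. Of the 341 higher contigs, 183 had no count in any control library, another 144 had a control mean below 1 CPM, and 14 had a control mean of 1 CPM or more. Of the 679 lower contigs, 453 had no count in any activated library, another 195 had an activated mean below 1 CPM, and 31 had 1 CPM or more. Among all 266980 contigs tested, 1759 had no control count and 182617 a control mean above 0 and below 1 CPM. In the activated libraries these numbers were 5704 and 184020. A mean above 0 and below 1 CPM was thus common among all contigs and does not set the called ones apart. Where a group without counts is given 3 counts in total as its floor, the median log2 fold change was 4.41 for the higher contigs and -4.2 for the lower contigs. No called contig had changed by less than 2.2 on the log2 scale. The 3 activated and 3 control libraries did not overlap for 331 of the 341 higher contigs, against 3.84% of all contigs in that direction. They did not overlap for 676 of the 679 lower contigs, against 7.53% of all. The calls were made on these same libraries, so the separation follows largely from the choice and is no further result.

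Contig 963257 had the smallest p among the higher contigs. It was at 76.1, 88.2, and 70.5 CPM in the activated right parts of snails 4, 5, and 6 and at 0.162, 0, and 0.117 CPM in the control right parts of snails 1, 2, and 3. The activated libraries held 2407 counts of it and the control libraries 6. The log2 fold change was 9.32 at an adjusted p of 1.84e-17 (exact test). The left parts turned this around: the controls of snails 4, 5, and 6 were at 62.6, 57.3, and 52.7 CPM and the activated parts of snails 1, 2, and 3 at 0, 0.127, and 0 CPM, for a log2 fold change of -9.99 (adjusted p of 3.61e-15, exact test). Contig 963257 was thus high in both parts of snails 4, 5, and 6 and at or near 0 in both parts of snails 1, 2, and 3. Between the activated and control part of the same animal it differed by -0.405 to 0.618 on the log2(CPM + 0.5) scale.

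Contig 889438 had the smallest p among the lower contigs and showed the reverse layout. It had no count in the activated right parts of snails 4, 5, and 6 and was at 92.9, 80.8, and 71.1 CPM in the control right parts of snails 1, 2, and 3, with 4011 counts. It was at least 875-fold lower than in the control group, with 3 counts in total taken as the activated floor (adjusted p of 3.1e-18, exact test). In the left parts it was at 57.1, 54.2, and 63.4 CPM in the activated parts of snails 1, 2, and 3, at 0.947 CPM in the control part of snail 4, and without a count in the controls of snails 5 and 6. Its left log2 fold change was 7.06 at an adjusted p of 6.23e-06 (exact test), in the direction opposite to the right parts. The activated minus the control part of the same animal was -0.698, -0.572, and -0.166 on the log2(CPM + 0.5) scale in snails 1, 2, and 3, -1.53 in snail 4, and 0 in snails 5 and 6, so contig 889438 was higher in the activated part of no animal. With the snail as block over the 12 libraries it was still called lower (log2 fold change of -3.02, adjusted p of 0.000126, edgeR's quasi-likelihood test). It was not called in the block fit of snails 4, 5, and 6 alone (adjusted p of 0.759, same test). In both fits the contigs shared nearly 1 trend of spread, on which these adjusted p rest. The largest step, in snail 4, was from 25 counts in the left control to 0 in the activated part. Over the 12 libraries, the larger difference in both contigs was that between the sets of snails.

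This layout was the common one among the right calls. The left parts had 865 calls of their own (0.289% of 299775 contigs), 607 higher (0.202%) and 258 lower (0.0861%). The quasi-likelihood test called 2 contigs in the left parts, and without the left control of snail 4 the exact test gave 1483, so the counts of left calls that follow depend on the test and on that library. Of the 1002 right calls that could be tested in the left parts, 887 (88.5%) had the opposite direction there and 115 (11.5%) the same. Among all 248160 contigs tested on both sides, 37.4% had the same direction. The same direction was found for 67 of the 329 higher contigs (20.4%) and for 48 of the 673 lower contigs (7.13%), while the other 18 called contigs had too few counts in the left parts for a test. The opposite change was over 2-fold for 756 of the 887 contigs. In the left parts, 297 of the 887 were themselves called in the opposite direction, 113 of them lower and 184 higher. The backgrounds for these counts were 0.0995% of the contigs tested on both sides called lower and 0.239% called higher in the left parts. Of the 262 higher contigs with the opposite direction, 155 had all 3 left activated parts below all 3 left controls (2.63% of all contigs). Of the 625 such lower contigs, 358 had all 3 left activated parts above all 3 left controls (8.68% of all). The 887 contigs, with the 262 and 625 among them, were chosen by their left direction, whereas the backgrounds cover contigs of either left direction. The choice therefore raises these shares, and they are no test.

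**Figure D2:**
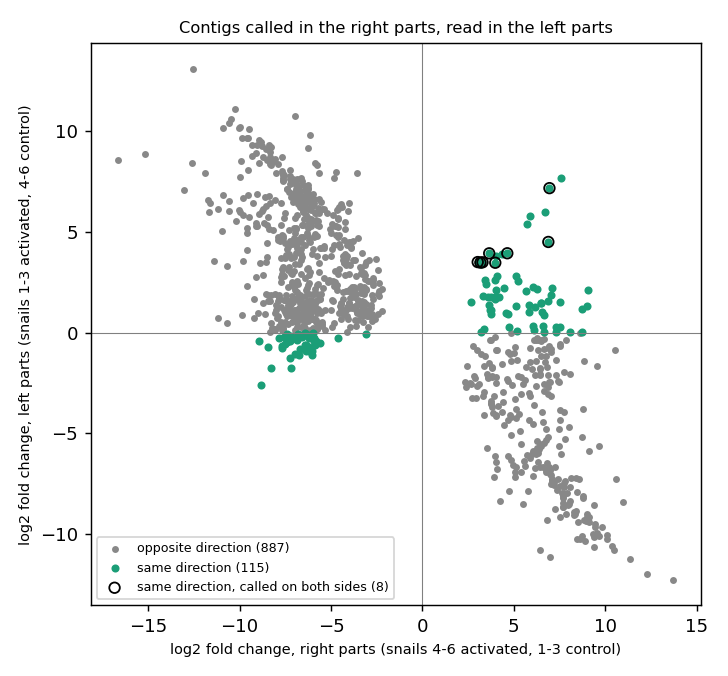
Log2 fold change, activated against control, in the right parts (x axis) and the left parts (y axis) for the 1002 contigs called in the right parts and tested in the left parts, 1 point per contig. The 887 grey points lie in the quadrants of opposite direction and the 115 green points in those of the same direction. The 8 ringed points were called on both sides in the same direction. Points far out include contigs with no count in 1 group, where the fitted value is no bound. They also include contigs with few counts in the low group, such as contig 963257.

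The difference between the right and the left change was tested for each contig in 1 model over the 12 libraries, and 391 of 387774 contigs (0.101%) were called. This contrast is the same as snails 4 to 6 minus snails 1 to 3 summed over both sides. The model took the 12 libraries as independent although each snail gave a left and a right library, so its p-values ignore that pairing. Among the right calls, 122 higher contigs had a called difference above 0 and 221 lower contigs a called difference below 0. For contigs 963257 and 889438 the adjusted p of the difference was 5.71e-05 and 0.000522 (edgeR's quasi-likelihood test). Of the contigs with the same direction on both sides, 0 of the 67 higher and 1 of the 48 lower had a called difference. The contrast holds the right change that chose all these contigs and the left change whose sign divided them. These counts therefore follow in part from the choice and are no test.

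The called contigs were divided by their level in the low group. Among the higher contigs, the left direction was the same for 6 of the 14 with a control mean of 1 CPM or more (42.9%), for 34 of the 141 tested below 1 CPM (24.1%), and for 27 of the 174 tested with no control count (15.5%). The median right log2 fold change was 3.14 in the contigs at 1 CPM or more and 4.68 in those below, so the contigs with the smaller steps had the larger share. Among the lower contigs the order was not the same: 0 of 31 at 1 CPM or more, 2 of 194 below 1 CPM (1.03%), and 46 of 448 with no activated count (10.3%) kept their direction. The contigs were also divided by their right p. Among the contigs with an unadjusted p below 0.05 that were not called, 1700 of 4301 higher ones (39.5%) and 1209 of 8670 lower ones (13.9%) had the same direction in the left parts. Among those at 0.05 or above, it was 50326 of 105565 higher (47.7%) and 39471 of 128622 lower contigs (30.7%). In each direction the share was lowest among the called contigs and highest among those at 0.05 or above; the difference between these shares was not tested.

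**Figure D3:**
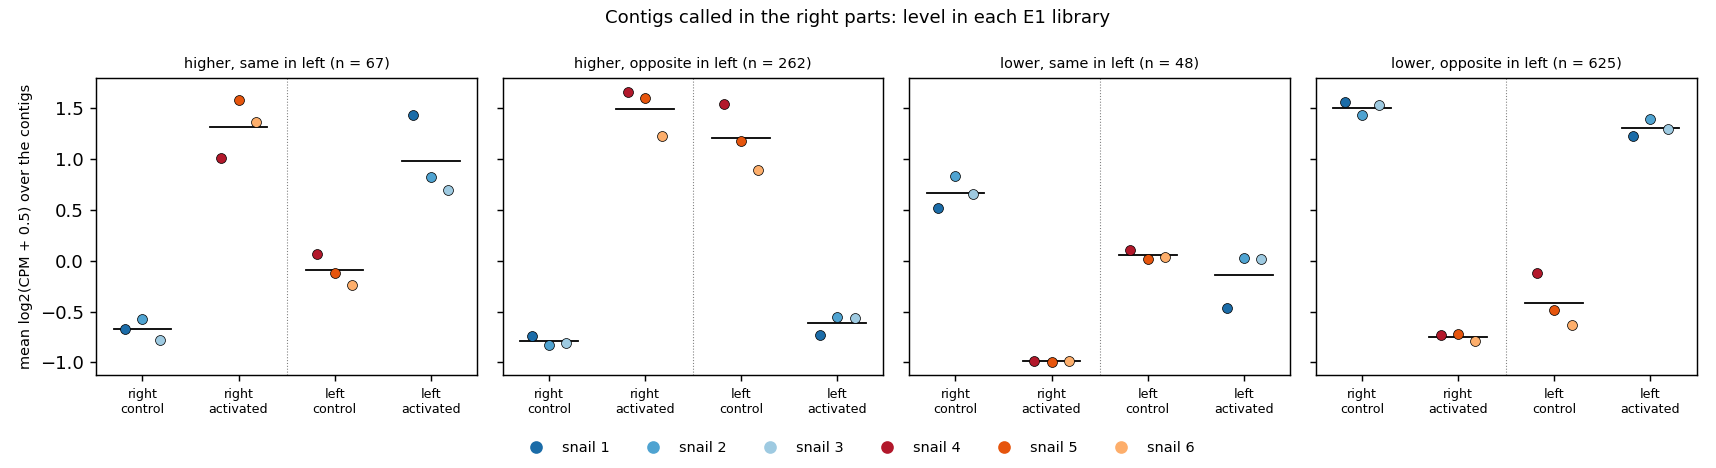
Mean log2(CPM + 0.5) over the contigs called in the right parts, in each of the 12 libraries of E1 (1 point per library, coloured by snail, line at the group mean), for the 4 sets by right and left direction. The 262 higher and 625 lower contigs with the opposite left direction separate snails 1 to 3 from snails 4 to 6 on both sides, whereas the 67 higher contigs with the same direction are highest in the activated libraries of both sides; the right call and the sign of the left change chose the contigs of each set, so both sides show that choice and neither is a test of it.

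The contigs that were higher on both sides formed a small set. In their mean level the 67 contigs stood at 1.01, 1.58, and 1.36 on the log2(CPM + 0.5) scale in the activated right parts of snails 4, 5, and 6, and at 1.43, 0.824, and 0.7 in the activated left parts of snails 1, 2, and 3. The left controls of snails 4, 5, and 6 lay lower, at 0.0674, -0.117, and -0.238. The right controls of snails 1, 2, and 3 were at -0.669, -0.575, and -0.78. The 67 contigs were chosen by the right call and the left direction, so these levels describe the choice and are no test. In E2, 50 of the 66 of them that were tested (75.8%) were higher in the activated pieces, with a median log2 fold change of 1, whereas 43.7% of all contigs tested in the right parts and E2 were higher. The 262 higher contigs with the opposite left direction had 105 of 250 higher in E2 (42%), with a median of -0.0989. Of the 48 contigs lower on both sides, 27 of 45 were lower in E2, with a median of -0.187, and 342 of 584 of the lower contigs with the opposite left direction were lower, with a median of -0.141.

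The contigs called in the same direction on both sides numbered 8, and all 8 were higher in the activated parts. They are 8 of the 341 contigs called higher on the right and of the 607 called higher on the left. The left parts could test 329 of those 341, and 0.239% of all contigs tested on both sides were called higher there. Their log2 fold changes ran from 3.03 to 6.95 in the right parts and from 3.46 to 7.16 in the left parts, and activated and control libraries did not overlap on either side for any of them. Of the 8, 1 had no count in the right controls, and its right value is a fitted one and no bound. All 8 were called on these same libraries, so the separation follows largely from the choice. Their control means in the right parts lay between 0 and 2.51 CPM and their activated means between 1.18 and 26.2 CPM, so they include contigs of low level. All 8 were also higher in E2, by 1.24 to 2.51 on the log2 scale, although none was called there (lowest adjusted p of 0.261, exact test). Leaving out 1 library moved this count between 1 and 30. It was 30 without the right control of snail 2 and 29 without the right activated part of snail 4. It was 1 without the right control of snail 3 or the left control of snail 5, 2 without the left activated part of snail 1 or the left control of snail 6, 3 without the right activated part of snail 5 or the right control of snail 1, and 4 without the left activated part of snail 2.

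Contig 1027963 had the smallest p on its weaker side among the higher contigs with the same direction. It was at 0.854, 2.94, and 2.8 CPM in the activated right parts of snails 4, 5, and 6 (11, 35, and 15 counts) and at 0.0973, 0.151, and 0 CPM in the control right parts of snails 1, 2, and 3 (3, 1, and 0 counts). The groups did not overlap, and snail 4 was the lowest activated part. The right log2 fold change was 4.64 at an adjusted p of 0.015 (exact test). The call was lost without the activated part of snail 5 (adjusted p of 0.05), without the control part of snail 1 (0.0931), and without that of snail 3 (0.155). In the left parts the activated libraries of snails 1, 2, and 3 were at 5.88, 2.5, and 2.22 CPM and the controls of snails 4, 5, and 6 at 0.303, 0.245, and 0 CPM, with a log2 fold change of 3.93 at an adjusted p of 0.0179 (exact test). Its activated part was above the control part of the same animal in all 6 snails, by 0.753 to 3.42 on the log2(CPM + 0.5) scale, and snail 4 again had the smallest step.

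Contig 2001707 had the smallest p on its weaker side among the lower contigs with the same direction. It had no count in the activated right parts and was at 4.18, 4.52, and 4.67 CPM in the control right parts of snails 1, 2, and 3 (199 counts). The activated level was at least 43.4-fold lower, with the floor taken in the same way (adjusted p of 3.1e-08, exact test). In the left parts the controls of snails 4, 5, and 6 were at 0, 2.2, and 1.9 CPM and the activated parts of snails 1, 2, and 3 at 0, 0, and 0.665 CPM. The left groups overlapped, and the left log2 fold change of -2.59 was not past the threshold (p of 0.174, exact test). Within the animals, contig 2001707 was lower in the activated part than in the control part in 5 of 6 snails, by 2.15 to 3.33 on the log2(CPM + 0.5) scale, and without a count in both parts of snail 4. The fits with the snail as block called it lower, at -5.78 over the 12 libraries (adjusted p of 9.74e-14) and -6.75 in snails 4, 5, and 6 (adjusted p of 0.027, edgeR's quasi-likelihood test). The value of -6.75 was fitted against activated parts with no count, and the left controls of snails 4, 5, and 6 held 0, 9, and 8 counts. In that fit activation and side coincide. In both fits the contigs shared nearly 1 trend of spread, on which these adjusted p rest. No contig was called lower on both sides. The left parts could test 673 of the right-lower contigs, and 0.0995% of all contigs tested on both sides were called lower there. At so low a share, the absence is no result about the lower contigs.

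With the weaker condition of an unadjusted p below 0.05 on each side, 599 contigs (0.241% of those tested on both sides) were higher in the activated parts of both sides, c-fos/fosl2 among them, and 37 (0.0149%) were lower in both. The opposite patterns held more contigs: 1127 (0.454%) were higher on the right and lower on the left, and 2265 (0.913%) were lower on the right and higher on the left. The patterns were then read in E2. Of the 599 contigs higher on both sides, 561 of the 594 tested in E2 (94.4%) were higher there, with a median log2 fold change of 1.31. Of these, 35 were called higher in E2, against 0.0239% of all contigs tested in E2. Of the 37 lower on both sides, 16 of 29 (55.2%) were higher in E2, with a median of 0.143. The contigs of the opposite patterns were higher in E2 for 427 of 1028 (41.5%) and 898 of 2013 (44.6%), near the 43.7% of all contigs.

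The right parts were also read for the contigs called in E2, a list made from other snails (112 contigs, 0.0353% of those tested there). Of the 76 contigs higher in E2 (0.0239%), 62 had enough counts in the right parts, and 56 of them were higher in the activated right parts, where 44.2% of all contigs were higher, and 6 lower. Only 1 was called (against 0.128% of all contigs), while 40 had an unadjusted p below 0.05 (64.5% against 5.68% of all), 38 of them higher. For 31 of the 62 all activated right parts stood above all controls (50% against 3.84% of all). Their right log2 fold changes ran from -6.91 to 6.75 with a median of 2.33, and the median over all contigs was -0.107. In the left parts 57 of the 62 were higher, with a median of 2.98 against 0.175 over all contigs tested on both sides. In those parts 24 were called higher, against 0.239% of all contigs tested on both sides. On both sides together, 52 of the 62 were higher.

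The mean level of the 62 contigs put the library of snail 4 apart from the other activated right parts. It was 0.826 on the log2(CPM + 0.5) scale in the activated right part of snail 4, against 2.05 and 1.63 in those of snails 5 and 6. The right controls of snails 1, 2, and 3 were at 0.359, 0.498, and 0.0121, so the groups did not overlap. The left control of snail 4, at 0.76, was nearly as high as its activated right part, and the other left controls were at 0.2 and -0.0206. Those of snails 5 and 6 were much shallower libraries. Over all contigs tested in the right parts, the left controls of snails 4, 5, and 6 stood at 0.437, 0.0942, and 0.0502. The share of depth in these levels was not tested. For the 62 contigs, as for c-fos/fosl2, snail 4 thus had the smallest difference between its parts. Without the activated part of snail 4, 22 of the 62 contigs were called in the right parts, where 1 was called with it. Without the control part of snail 2 the count was 7, and without that of snail 1 or 3 it was 0. The higher calls over all contigs moved as well, from 341 to 618 without the activated part of snail 4. They were 609, 520, and 350 without the right controls of snails 2, 1, and 3. The median right log2 fold change of the 62 stayed between 1.95 and 2.84 when any 1 of the 6 right libraries was left out.

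The 36 contigs lower in E2 gave smaller values in the right parts. Of these, 31 were lower in the activated right parts, where 55.8% of all contigs were lower, and 5 were higher, with a median log2 fold change of -0.523, but 0 were called in the exact test, 0 had an unadjusted p below 0.05, and for 0 did all activated parts stand below all controls. The change was over 2-fold in that direction for 9. Their mean level was 1.19, 0.425, and 0.0874 on the log2(CPM + 0.5) scale in the activated right parts of snails 4, 5, and 6 and 1.16, 1.17, and 0.882 in the control right parts of snails 1, 2, and 3, so snail 4 lay with the controls and the groups overlapped. In the left parts 25 of 35 were lower, with a median of -0.522 against 0.175 over all contigs tested on both sides, and 22 were lower on both sides.

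**Figure D4:**
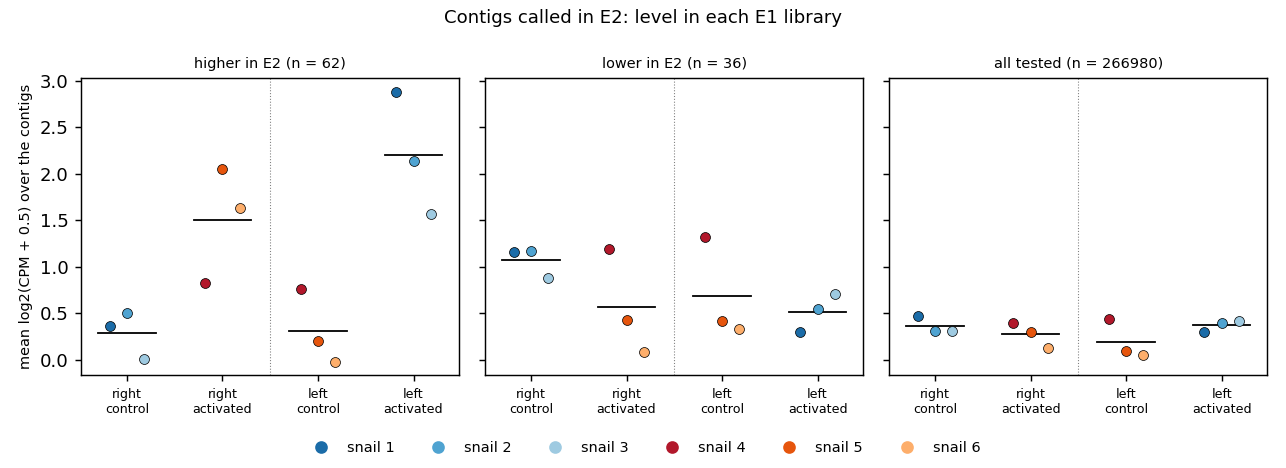
Mean log2(CPM + 0.5) in each of the 12 libraries of E1 (1 point per library, coloured by snail, line at the group mean) over the 62 contigs called higher in E2, the 36 called lower in E2, and all 266980 contigs tested in the right parts. For the 62 contigs the activated right parts lie between 0.826 (snail 4) and 2.05 and the right controls between 0.0121 and 0.498; for the 36 contigs the right groups overlap.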

How the data were processed

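Ganglion RNA was sequenced with reads of 100 nt. The protocol depleted rRNA and used a kit for stranded total RNA, although the molecule is labelled polyA RNA. The authors removed adapters with cutadapt 1.11, assembled 693041 contigs, mapped the reads with Bowtie 1.0.0, and ran RSEM 1.2.18 to obtain expected counts per contig. The deposited expected counts are neither normalized nor filtered. Reads shared by similar contigs are split by RSEM, so related contigs are uncertain. All columns matched a sample by name.

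The expected counts were rounded, and a contig was tested if its 6 right libraries summed to more than 10 counts. Activated and control parts were compared with edgeR 4.0.16 (R 4.3.3), using TMM scaling, estimateDisp, the exact test, and Benjamini-Hochberg adjustment. Calls needed an adjusted p below 0.05 together with a change of more than 2-fold. The left parts and E2 were tested in the same way, and the difference between sides with the quasi-likelihood test on 4 groups. CPM were scaled by TMM over the 12 E1 libraries, and levels are log2(CPM + 0.5). Contig lengths were not used, so levels of different contigs are not compared. Fold changes of contigs with no count in 1 group are given as bounds against 3 counts over the group, which cover counting error only. The p-values of the right and left comparisons measure the spread between snails. The fit of the difference between sides took 12 libraries from 6 snails as independent, and the E2 test 12 libraries from 7 snails. Most E2 snails gave both conditions, and that pairing was not used. The fits with the snail as block use the spread within snails. Total counts per library were 3513906 to 35225724 in E1.

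The alternatives were the quasi-likelihood test, DESeq2 1.42.0, other scaling, filters, dispersions, fold thresholds, thinning to 4704366 counts, a fit of 4 groups, fits with the snail as block, and leaving out each library. The named contigs were c-fos/fosl2, the called contig with the smallest p in each direction, and in each direction the contig with the smallest p on its weaker side among right calls with the same left direction. The comparison, the lists, and these rules were chosen with earlier results of these data known. The scripts were tested on simulated data. The 11 samples used only for the assembly were not analysed here.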

Additional observations from a re-analysis of the deposited data

Results flagged for a closer look

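The right change minus the left change was called for 391 contigs (edgeR's quasi-likelihood test on 4 groups, 12 libraries). This contrast equals snails 4 to 6 minus snails 1 to 3 over both sides, and the fit ignores that each snail gave 2 of the 12 libraries. Both contigs with the smallest p in the right comparison were among them: contig 963257, higher in the right parts, with an adjusted p of 5.71e-05, and contig 889438, lower in the right parts, with an adjusted p of 0.000522. The right change chose these contigs and is also part of the contrast, so the adjusted p is no separate test of them. In both contigs, the 3 snails with a high level on the right were also those with a high level on the left. A change that depends on the side and a difference between the sets of snails cannot be told apart here. Samples far from the others were not looked for within the groups, which hold 3 libraries each.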

How the results depend on the processing

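The 1020 right calls became 0 with the quasi-likelihood test, 620 without a filter, and 573 with 4 groups in 1 fit. The 341 higher calls became 0, 216, and 195, and 205 after thinning. The 679 lower calls became 0, 404, and 378, and 422 in DESeq2. The left calls fell to 2 with the quasi-likelihood test, and the called differences between sides rose to 2981 in DESeq2. The share of right calls opposite on the left was 84.6% in DESeq2. The 8 contigs called alike on both sides became 0 with the quasi-likelihood test and 15 with a filter of 1 CPM in 3 libraries. Of the E2-higher contigs, 3 were called with that filter and 3 with the E2 list from DESeq2. For c-fos/fosl2 the log2 fold change was 3.27 in DESeq2 (adjusted p of 0.0345), 3.28 with the CPM filter (0.0368), and 3.12 after thinning (0.0157), and adjusted p ran from 2.17e-71 to 0.811 over its alternatives.

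No block can be fitted within the right parts, whose groups share no snail. Fits with the snail as replicate block set the right activated parts against the left controls of the same snails (2027 calls, 1213 higher) or took 12 libraries with side (2794 calls, 2117 higher). In the fit against the left controls, activation and side coincide and cannot be told apart. The robust versions, chosen after seeing the data, gave 2399 (1413 higher) and 2438 (1905 higher). Of the right calls, 70 of the 341 higher and 117 of the 679 lower were also called in that direction in the fit of 12 libraries. That fit called 2117 higher and 677 lower of 387774 contigs. The fit against the left controls called 35 of the higher and 48 of the lower right calls alike. It called 1213 higher and 814 lower of 240513 contigs. Right libraries stand in both fits, so these counts are no separate test. For c-fos/fosl2 the pairing gave 2.83 (adjusted p of 2.66e-13) and 3.57 (2.17e-71), and 2.83 (0.147) and 3.57 (0.515) in the robust fits. Contig 963257 turned to -0.297 (adjusted p of 1) in both fits of 12 libraries. The block fits left 2 or 4 residual degrees of freedom, and with the prior degrees of freedom at 59.55 or infinite the contigs shared nearly 1 trend of spread.

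Leaving out 1 library gave 1129 to 2007 right calls (2007 without the right control of snail 2), 350 to 639 higher (618 and 639 without the right activated parts of snails 4 and 6, 609 and 520 without the right controls of snails 2 and 1), and 729 to 1398 lower (1398 without the right control of snail 2). It gave 806 to 1483 left calls (1483 without the left control of snail 4), 256 to 340 called differences (256 without the right control of snail 1, 258 without the left activated part of snail 3), 78.6% to 90.1% opposite, 1 to 30 contigs called alike on both sides, 0 to 22 E2-higher contigs called, and 2.82 to 4.4 for c-fos/fosl2 (adjusted p of 0.000502 to 0.411). At 3 snails a group, contigs below about 1 CPM rest on few counts.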
